A study of Mus musculus with 1505 samples.

Results

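The genes described here are the Kv1 voltage-gated potassium channel genes of the mouse and the genes of their beta subunits. There were 9 of them, chosen by name, out of 42381 genes in the exonic count table: the alpha subunit genes Kcna1, Kcna2, Kcna3, Kcna4, Kcna5 and Kcna6, and the beta subunit genes Kcnab1, Kcnab2 and Kcnab3. The other mouse members of the alpha family, Kcna7 and Kcna10, were looked up beside them and reached no more than 1.02 CPM (reads of the gene over all exonic reads, times 1000000) in any family of neurons. The values come from Patch-seq, in which a neuron in an acute slice is recorded through a patch pipette and its RNA is then drawn into that pipette and sequenced, here with the full-length Smart-seq2 chemistry. Neurons of primary motor cortex were taken from adult male and female mice, either wild-type C57Bl/6 or carrying the Ai9 reporter and one of the Cre drivers Viaat, Sst, Vip, Pvalb, Npy, Vipr2, Slc17a8 or Gnb4, so the mix of types follows the driver used and is no census of the cortex. The authors gave each cell a transcriptomic type (t-type) by matching its RNA to reference data sets from dissociated cells and nuclei.

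Of 185 cells recorded at 34 °C, 177 had a t-type in the labels: 110 Sst, 12 ET, 43 IT, 10 Pvalb and 2 NP cells. Of 1320 cells recorded at 25 °C, 1228 had one. They fell into the inhibitory families Pvalb (286 cells), Vip (152), Lamp5 (92), Sncg (13) and Sst (272), and the excitatory families ET (extratelencephalic, called PT in the t-type names, 48 cells), CT (corticothalamic, 83), IT (intratelencephalic, 253), L6b (24) and NP (near-projecting, 5). All 34 °C cells were bathed in kynurenic acid and picrotoxin, which block fast synaptic transmission, layer 5 was targeted, and the mice were Sst-Cre/Ai9 or, in 1 case, Pvalb-Cre/Ai9, so temperature, blockers, mice and recording days cannot be told apart.

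Kv1 channels are tetramers of alpha subunits, which can mix within a channel, and each alpha subunit can bind a beta subunit on its cytoplasmic side. In neurons they pass a current that opens near threshold and limits repetitive firing, and Kcna1 and Kcna2 products are best known from the axon initial segment, the juxtaparanodes beside nodes of Ranvier and axon terminals. The products of Kcna4 and Kcnab1 carry N-terminal domains that plug the open pore, which turns a sustained current into one that inactivates quickly. Beta subunits share the fold of aldo-keto reductases and also help channels reach the membrane and the axon.

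Each deposited sample is a single cell, and the labels do not say which mouse a cell came from. A family was therefore treated as 1 sample, and no test between families was run. Recording days, which the labels do give, were used only for counting directions and leaving out days. The counts of all cells in a group were added up and divided by their total of exonic counts without spike-ins, times 1000000 (CPM), with an exact Poisson 95% interval. Reads copied by PCR without molecular identifiers are not independent molecules, so intervals cover counting error only and are far narrower than the spread between cells. That spread is given by the lowest, quartile, median and highest CPM over cells with at least 100000 counts. Exonic totals ran from 2588 to 18172944 per typed cell at 25 °C, with a median of 1267853, so the share of cells with a read is given for cells drawn down to 200000 counts each, which kept 1157 cells. Exact binomial intervals of these shares treat cells as independent and leave out the spread between mice and recording days. The families carried their own markers. At 25 °C Gad1, an enzyme of GABA synthesis, was at 1375 to 4377 CPM in the 5 inhibitory families and at most 14.6 CPM in the excitatory ones. Slc17a7, a vesicular glutamate transporter, was at 202 to 855 CPM in the excitatory families and at most 12.998 CPM in the inhibitory ones. At 34 °C Gad1 was at 22.5 CPM in ET, 10.5 CPM in IT and 221 CPM in the NP cells, the last from 1 of the 2 cells, and Slc17a7 was at 193 to 411 CPM in these families. RNA of other brain cells was present throughout: 8 microglial genes summed to between 280 and 964 CPM by family.

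The 6 alpha genes code for their protein in a single block each, and they lie partly in clusters. In the GENCODE M21 annotation of GRCm38, Kcna5 (chr6:126532551-126535412), Kcna1 (chr6:126640397-126646384) and Kcna6 (chr6:126708329-126740674) stand on the minus strand of chromosome 6 within 208 kilobases. Kcna3 (chr3:107036169-107038070) and Kcna2 (chr3:107101146-107115005) stand on the plus strand of chromosome 3, and Kcna4 is alone (chr2:107290639-107298502, plus strand). The beta genes are scattered and split into many exons: Kcnab1 (chr3:65109384-65378223, plus strand), Kcnab2 (chr4:152390742-152477871, minus strand) and Kcnab3 (chr11:69326258-69333042, plus strand). The stretch below codes for the pore of each alpha subunit and is shown because it lines the path of the potassium ions and its bases still tell the 6 genes apart. Bases are from GRCm38 in the coding direction, and capitals mark the 15 bases of the selectivity filter, the part that lets potassium through.
Kcna1: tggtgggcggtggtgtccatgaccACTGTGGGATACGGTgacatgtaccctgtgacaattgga
Kcna2: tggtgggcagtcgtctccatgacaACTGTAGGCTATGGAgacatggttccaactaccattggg
Kcna3: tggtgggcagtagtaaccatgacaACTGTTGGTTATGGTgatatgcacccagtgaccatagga
Kcna4: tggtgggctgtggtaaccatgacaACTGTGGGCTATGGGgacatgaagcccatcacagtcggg
Kcna5: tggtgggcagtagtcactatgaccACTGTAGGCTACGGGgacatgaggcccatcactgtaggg
Kcna6: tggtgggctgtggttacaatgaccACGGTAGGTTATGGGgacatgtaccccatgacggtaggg

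Across the 15 pairs of genes these 63 bases differed at 10 to 18 positions (median 15). Even within the 15 filter bases the pairs differed at 2 to 5 positions, so all 6 filters were distinct. Over the whole coding sequence the alpha genes were 73.4% to 80.9% identical in pairs. The beta genes were 69.6% to 79.2% identical. The closest pair was Kcna5 and Kcna6, which share a run of 91 identical bases inside the coding sequence, longer than a single 75-base read, so reads from within it cannot be assigned to either gene alone. A further identical run of 86 bases lies beside it, so shared reads come from both runs, within 187 bases of either gene. The longer run is shown because no other pair of members shares reads, and it is at chr6:126533950-126534040 in Kcna5 and chr6:126738852-126738942 in Kcna6.
Kcna5 and Kcna6: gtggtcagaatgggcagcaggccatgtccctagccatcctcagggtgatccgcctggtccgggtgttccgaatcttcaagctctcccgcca

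Windows of 75 bases that occur in both genes made up 1.04% of those in Kcna5 exons and 0.494% of those in Kcna6 exons. No other pair of members shared a run of more than 31 bases, so the other levels below do not rest on ambiguous reads between members. The library kit did not keep the strand. Reads of an annotated antisense partner (Gm27008 over Kcna3, Gm26673 over Kcna6 and Kcnab3os over Kcnab3) therefore cannot be told apart from those of the gene.

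Kcna1, the gene mutated in episodic ataxia in humans, had its highest level in Pvalb cells, the fast-spiking interneurons, at 247 CPM (interval 246 to 249). Over single Pvalb cells its CPM ran from 0 through a median of 193 to 959, and a read was found in 230 of 273 cells at equal depth (84.2%, exact binomial interval 79.4% to 88.4%). ET cells followed at 154 CPM, with a median cell of 100 and a read in 88.6% of cells. CT cells reached 152 CPM and L6b cells 143 CPM, but the median L6b cell was at 0.492 CPM and 11 of 24 cells had a read. Lamp5 (105 CPM), Sst (92.8 CPM) and IT cells (95.8 CPM) formed a middle group with median cells between 25.5 and 34.7 CPM. Vip cells were lower at 54.98 CPM, with a median cell of 0. Sncg cells had 31.8 CPM (19.9 CPM without 1 cell) and NP cells 11.7 CPM, the last from 1 cell almost alone. For every pair of neighbours in this order the interquartile ranges over cells overlapped, so the order describes family sums and not a separation of cells. The Pvalb level also differed with the period of recording: 202 CPM in 134 cells of 2019 and 302 CPM in 152 earlier cells.

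**Figure D1:**
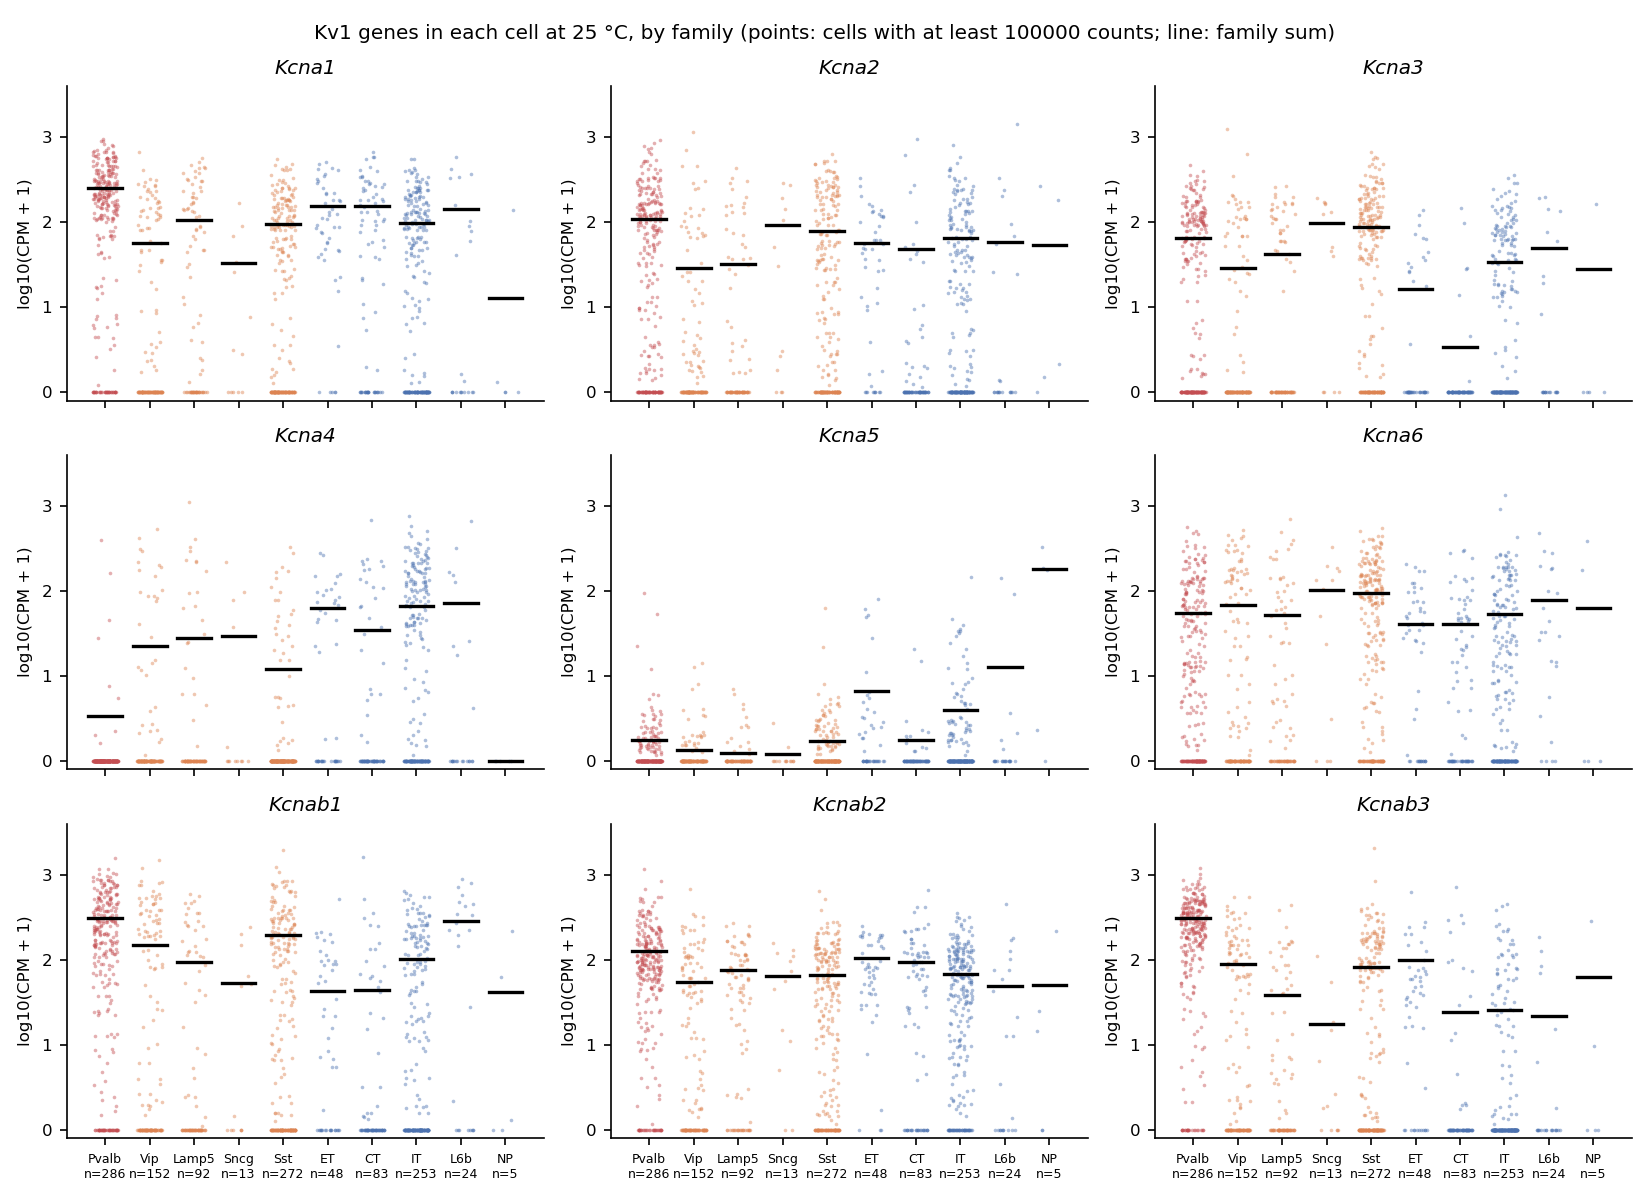
Level (log10 of CPM + 1) of each of the 9 genes in single cells at 25 °C by family (points, cells with at least 100000 counts), with a line at the level of the family sum over all its cells (n under each family). Kcnab3 and Kcna1 stand highest in Pvalb cells (305 and 247 CPM), Kcna4 is at 0 in most Pvalb cells, and Kcna5 is at most 11.9 CPM in every family but NP (179 CPM).

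Among the 53 t-types with at least 5 cells, Kcna1 ran from 0 to 304 CPM, and the 4 highest were all Pvalb types: Pvalb Kank4, Pvalb Reln, Pvalb Gpr149 and Pvalb Calb1_1. The lowest was Sst Chodl, the long-range projecting interneurons that express nitric oxide synthase. All 12 Sst Chodl cells had no Kcna1 read, 9 of them at more than 500000 counts each, which allows a level of up to 0.265 CPM at 3 counts over the group. No other t-type of at least 5 cells was under 1 CPM. The same 12 cells had no Kcnab3 read either, but Kcna2 was at 62.1 CPM, Kcna6 at 57.9 CPM and Kcnab2 at 85.2 CPM in them. Single cells carried much of these sums, which were 23.1 CPM of Kcna2, 36.97 CPM of Kcna6 and 38.1 CPM of Kcnab2 without the cell that gave most reads. Kcna2 and Kcna6 reads were each found in 9 of the 12 cells and Kcnab2 reads in 3, so reads of other Kv1 genes were present in most of these cells.

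Kcna2 codes for the subunit that most often pairs with the Kcna1 product in axons. It was again highest in Pvalb cells, at 108 CPM (107 to 109), with cells from 0 through a median of 56.6 to 919 CPM. Sncg (91.4 CPM) and Sst cells (76.7 CPM) came next, then ET (56.3 CPM), IT (64.03 CPM), L6b (57.3 CPM) and NP cells (52.2 CPM). CT cells were at 46.6 CPM, but 1 cell gave 66.99% of those reads and without it the family was at 15.9 CPM, the lowest of the 10. Lamp5 cells (30.7 CPM) and Vip cells (27.5 CPM) otherwise closed the order. By t-type the range was from 0.769 CPM in Vip Htr1f to 255 CPM in L5 IT_2, a deep IT type of 7 cells. Without 1 cell L5 IT_2 was at 52.8 CPM, below the 186 CPM of Pvalb Gpr149.

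Kcna6, a less studied alpha subunit, was spread rather evenly over the families. Its levels ran from 39.8 CPM (ET) and 40.3 CPM (CT) to 94.8 CPM in Sst and 101 CPM in Sncg cells. Pvalb cells were in the middle at 53.97 CPM, so the fast-spiking family did not lead here. By t-type the range was from 0.256 CPM in Vip Htr1f to 222 CPM in Sst Th_1, and the 4 highest types were all Sst types. In IT cells 1 cell gave 21.3% of the Kcna6 reads, and the level was 43.2 CPM without it.

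Kcna3 codes for a subunit best known from lymphocytes and microglia. It was highest in Sncg cells (96.98 CPM, 92.8 to 101) and Sst cells (85.6 CPM, 84.8 to 86.5), followed by Pvalb cells at 64.5 CPM. In Sst cells the median was 47.7 CPM and the highest 665 CPM, and 64.6% of cells had a read at equal depth. The lowest family was CT, with 2.39 CPM (2.14 to 2.66), a median cell of 0 and a read in 6 of 82 cells (7.32%, 2.73% to 15.2%). ET (15.2 CPM), IT (33.04 CPM), L6b (48.6 CPM), Lamp5 (40.9 CPM), Vip (27.9 CPM) and NP cells (26.7 CPM, from 1 cell) lay between. Microglial genes summed to 308 CPM in CT cells, 280 CPM in Sncg cells and 675 CPM in Sst cells. In cells with under 1000 CPM of all non-neuronal markers Kcna3 was at 102 CPM in Sncg, 90.4 CPM in Sst and 1.78 CPM in CT cells. It was lower in such cells in L6b (20.7 CPM in 7 cells, beside 48.6 CPM in all 24) and ET (7.59 CPM in 9 cells, beside 15.2 CPM in all 48). The part of non-neuronal RNA in the Kcna3 values was not tested. In 16 Vip Chat_1 cells there was no Kcna3 read, which allows up to 0.151 CPM at 3 counts. The 4 highest types were Sst types, led by Sst Myh8_1 at 127 CPM.

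Kcna3 has 1 exon in this annotation, and the long noncoding RNA gene AI504432 begins 1433 bases past its end on the same strand. That gene was at 115 CPM in Sst cells and 5.63 CPM in CT cells, and its levels followed those of Kcna3 over t-types more closely than all but 1 of 15123 genes (Pearson r = 0.63, n = 53). Whether the 2 sets of reads come from 1 transcript was not tested.

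Kcna4, the subunit with its own inactivation domain, showed the opposite split. Its levels were 61.8 CPM (60.4 to 63.2) in ET, 65.2 CPM (64.5 to 66.02) in IT and 70.6 CPM (67.98 to 73.3) in L6b cells. CT cells were lower at 33.5 CPM. The CGE-derived interneurons (from the caudal ganglionic eminence) came next, with 28.2 CPM in Sncg (16.4 CPM without 1 cell), 27.1 CPM in Lamp5 and 21.2 CPM in Vip cells. Sst cells had 10.98 CPM. In Pvalb cells Kcna4 was at 2.40 CPM, 1 cell gave 66.6% of those reads, and without it the level was 0.811 CPM. At equal depth 5 of 273 Pvalb cells had a read (1.83%, 0.597% to 4.22%), against 125 of 240 IT cells (52.1%, 45.6% to 58.6%). No read was found in the 5 NP cells, which allows a level of up to 0.330 CPM at 3 counts. Kcna4 was under 1 CPM in 14 of 53 t-types and over 100 CPM in L4/5 IT_1 (112 CPM) and Sst Pvalb Etv1 (103 CPM, but 21.5 CPM without 1 of its 8 cells).

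Kcna5 codes for a subunit best known from heart and smooth muscle. It was nearly absent from the large families, at 0.194 to 0.785 CPM in the 5 inhibitory families and CT cells, 5.70 CPM in ET and 2.99 CPM in IT cells. It was under 1 CPM in 39 of 53 t-types. The exception was the NP family, at 179 CPM (170 to 188). The 5 NP cells had 187, 330, 0, 1.33 and 175 CPM, so 3 of them were high and 2 were at or near 0. The NP cell labelled L5/6 NP CT was one of those with little Kcna5, and it was the only one of the 5 with more than 1 CPM of Kcna1 (139 CPM). The 2 NP cells at 34 °C had 0.546 and 0 CPM of Kcna5 and 88.4 and 23.5 CPM of Kcna1, with oligodendrocyte precursor genes summing to 2135 CPM in them. The part of that RNA in their values was not tested. L6b cells had 11.9 CPM of Kcna5, of which 1 cell gave 66.4%, and 4.23 CPM without it.

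**Figure D2:**
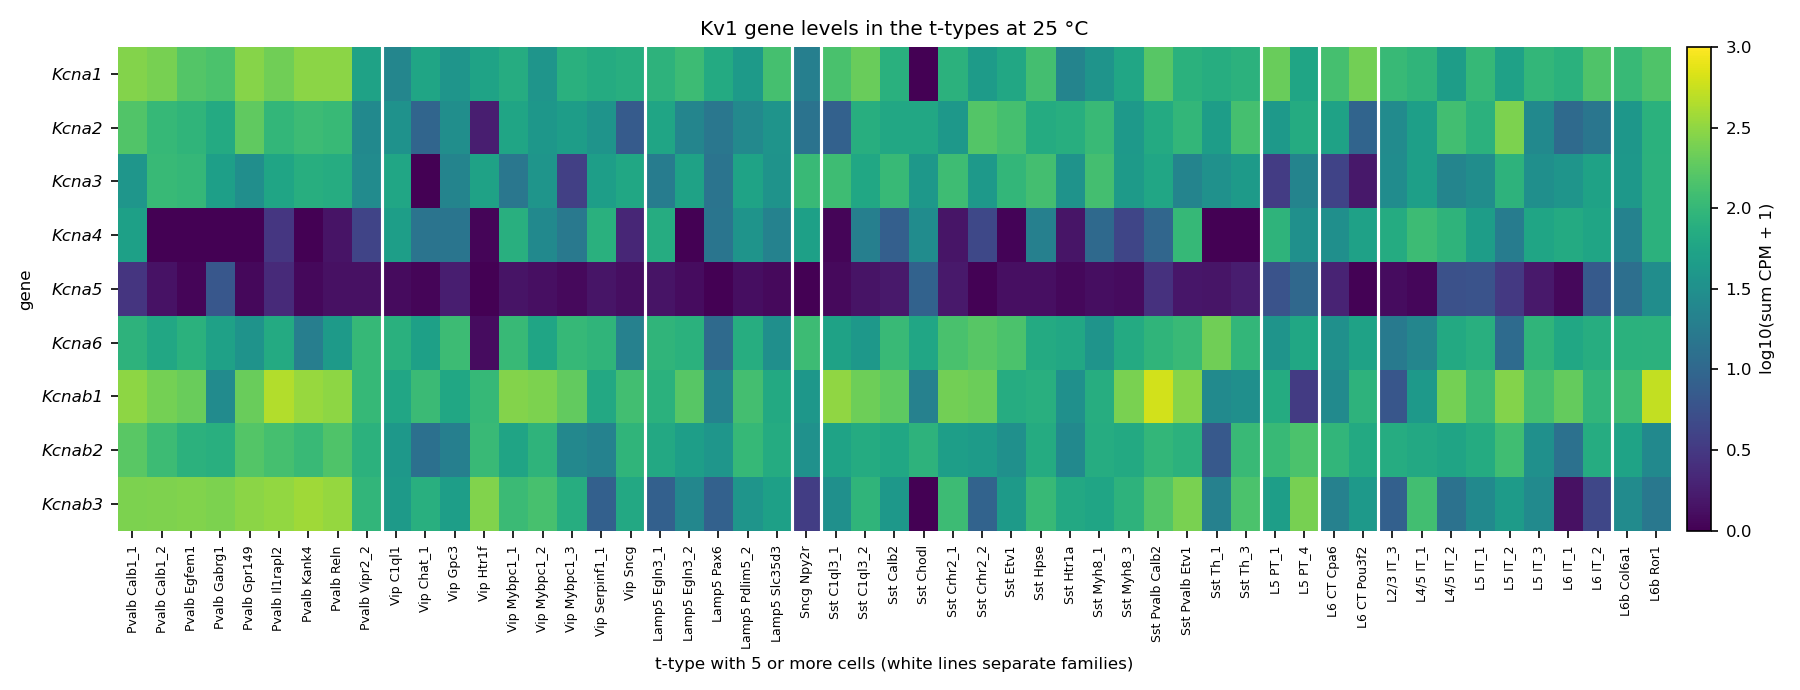
Level (colour, log10 of CPM + 1) of the 9 genes (rows) in the 53 t-types with at least 5 cells at 25 °C, grouped by family. Kcna1 and Kcnab3 are high over the Pvalb types except Pvalb Vipr2_2 and at 0 in Sst Chodl, and Kcna4 is at most 3.11 CPM in all Pvalb types but Pvalb Calb1_1 (50.2 CPM, all from 1 cell).

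Among the beta subunits, Kcnab3 had the sharpest distribution. Pvalb cells reached 305 CPM (303 to 307), with cells from 0 through a median of 240 to 1199 CPM and a read in 245 of 273 cells (89.7%, 85.5% to 93.1%). ET cells were next at 98.8 CPM, with a median cell of 38.8 CPM. Vip cells had 88.1 CPM and Sst cells 82.04 CPM, both with a median cell under 2 CPM. The interquartile range of Pvalb cells (105 to 383 CPM) lay wholly above that of ET cells (1.59 to 75.6 CPM). It was the only neighbouring pair in the order of this gene whose ranges did not overlap. NP (61.9 CPM, from 1 cell almost alone), Lamp5 (37.3 CPM), CT (23.6 CPM), IT (24.8 CPM), L6b (20.5 CPM) and Sncg cells (16.4 CPM) closed the order. Kcnab3 reached its t-type maximum in Pvalb Kank4 at 376 CPM, and Vip Htr1f stood out among CGE-derived types at 269 CPM, though at 26.1 CPM without 1 of its 6 cells. Its antisense partner Kcnab3os was at 6.29 CPM in Pvalb cells.

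Kcnab1, a beta subunit with an inactivation domain, was highest in Pvalb cells at 311 CPM (309 to 312) and in L6b cells at 287 CPM (282 to 293). Sst cells had 195 CPM, of which 1 cell gave 17.7%, and Vip cells 146 CPM. ET cells had 42.5 CPM and CT cells 42.8 CPM, against 100 CPM in IT cells. Lamp5 cells had 91.9 CPM, Sncg cells 52.8 CPM and NP cells 41.3 CPM. Kcnab1 varied widely between the t-types of a family. Within IT it ran from 5.27 CPM in L2/3 IT_3 to 275 CPM in L5 IT_2, and within Sst from 19.99 CPM in Sst Chodl (3.12 CPM without 1 cell) to 629 CPM in Sst Pvalb Calb2, the highest of all types. All 5 cells of L6b Ror1 were high, with 879, 801, 447, 143 and 340 CPM.

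Kcnab2, the most widely expressed beta subunit in brain, was the flattest of the beta genes. It ran from 48.8 CPM in L6b to 128 CPM in Pvalb cells (127 to 129), and the ET family (104 CPM) and the CT family (92.4 CPM) came after Pvalb. A read was found at equal depth in 86.1% of Pvalb, 90.9% of ET and 75.4% of IT cells. By t-type it ran from 5.80 CPM in Sst Th_1 to 171 CPM in Pvalb Calb1_1 (1.97 and 95.3 CPM without the top cell of each), and in no t-type was it under 1 CPM.

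Within the Pvalb family, 1 type stood apart. Pvalb Vipr2_2, the chandelier cells, whose axons contact the initial segments of pyramidal cells, was the lowest of the 9 Pvalb types in Kcna1 (52.5 CPM, against a median of 241 CPM over the types), Kcna2 (25.7 CPM, against 102 CPM), Kcna3 (26.9 CPM, against 57 CPM, and 4.82 CPM without 1 cell) and Kcnab3 (93.99 CPM, against 270 CPM). In Kcna6 it was at 103 CPM, against 61.6 CPM, but at 55.1 CPM without 1 cell. Its 17 cells were all recorded in 2019, so they were also set against the 117 other Pvalb cells of that year, a comparison added after the values had been seen. Kcna1 was at 52.5 CPM in Pvalb Vipr2_2 and 216 CPM in the other Pvalb cells of 2019, Kcna2 at 25.7 and 115 CPM, and Kcnab3 at 93.99 and 311 CPM. The lower sums of Pvalb Vipr2_2 were thus present within 1 recording period. The study used Vipr2-Cre mice beside Pvalb-Cre mice, and the part of driver line and mouse in these values was not tested. Within the ET family, the small type L5 PT_4 (9 cells) and the large type L5 PT_1 (31 cells) differed as much as whole families did. L5 PT_4 had 56.5 CPM of Kcna1, 238 CPM of Kcnab3, 31.2 CPM of Kcna4 (14.4 CPM without 1 cell) and 2.32 CPM of Kcnab1, against 205 CPM of Kcna1, 46.7 CPM of Kcnab3, 89.5 CPM of Kcna4 and 68.5 CPM of Kcnab1 in L5 PT_1. Kcna1 and Kcnab3, which were high together in Pvalb cells, thus went opposite ways between these ET types.

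To set the genes beside each other, levels were divided by the length of exonic sequence of each gene. Summed over alpha genes, the length-scaled level was 105 CPM per kilobase in Pvalb cells, between 88.1 and 93.7 in NP, L6b, Sst and Sncg cells, and 44.4 in Vip cells, the lowest. Kcna1 made up 62.4% of the alpha sum in CT, 49.5% in Pvalb and 48.6% in ET cells. Kcna3 made up 57.9% in Sncg and 50.4% in Sst cells, and Kcna5 66.7% in NP cells. Kcna4 made up 19.2% in ET and 20.4% in IT cells but 0.476% in Pvalb cells. Summed over beta genes, Pvalb cells stood at 165 CPM per kilobase and ET, Vip and Sst cells between 57.4 and 62.9. Kcnab3 was the largest part in Pvalb (64.3%), NP (61.2%), ET (59.4%), Vip (53.6%) and Sst cells (45.5%). Kcnab2 was the largest part in CT (55.6%), Sncg (48.9%), IT (37.1%) and Lamp5 cells (35.9%), and Kcnab1 in L6b cells (67.7%). These shares depend on the annotated exons. Kcna2 carries 11906 exonic bases and Kcna3 only 1902, and a cell that uses a short form of Kcna2 would have its level understated. CPM is a share of all exonic counts and does not give the amount of a transcript in a cell.

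**Figure D3:**
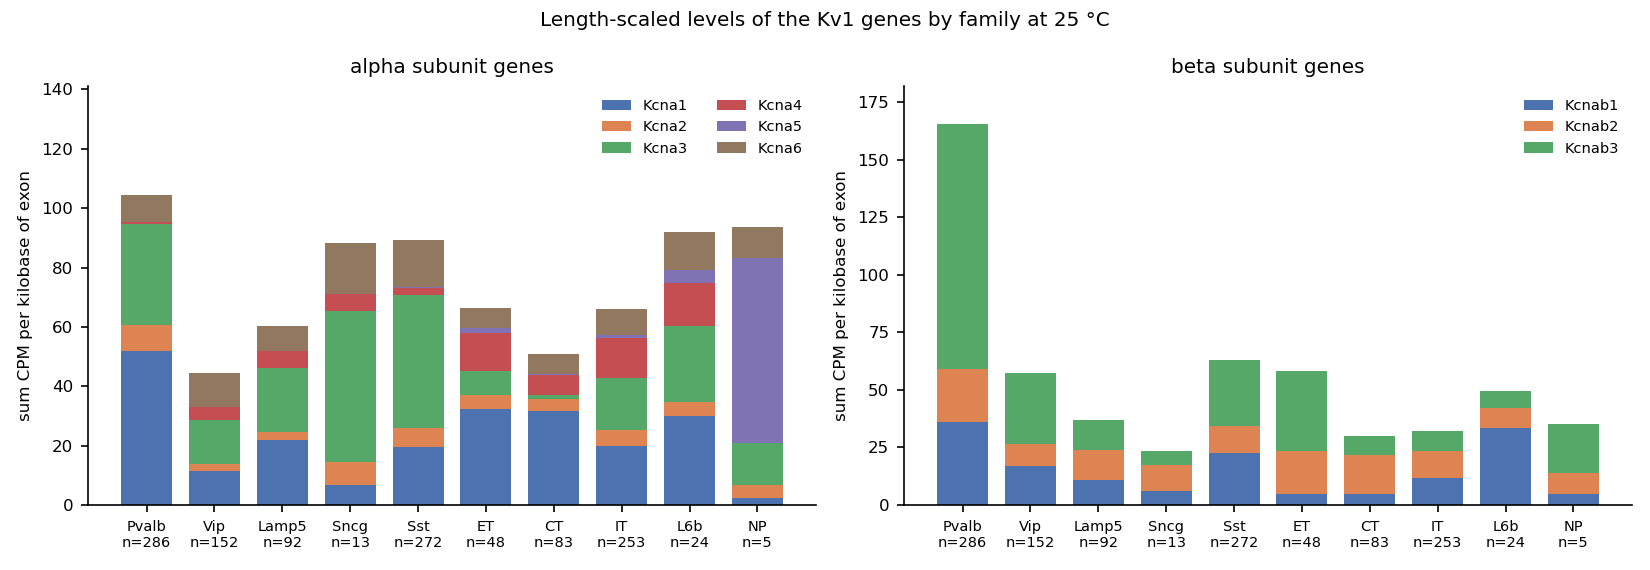
Length-scaled level (CPM per kilobase of exon) of the alpha genes and of the beta genes by family at 25 °C, stacked by gene. The beta sum (right) is 165 in Pvalb cells, of which Kcnab3 is 64.3%, and the alpha sum is lowest in Vip cells at 44.4.

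In single cells drawn down to equal depth, Kcna1 and Kcnab3 were both found in 213 of 273 Pvalb cells (78.02%, exact binomial interval 72.6% to 82.8%) and in 28 of 44 ET cells (63.6%, 47.8% to 77.6%). In Sst cells the share was 32.5%, in Vip cells 22.1%, in Lamp5 cells 21.1%, in CT cells 15.9% and in IT cells 15.8%. Pvalb and ET cells were therefore the families in which most cells had both genes. Kcna1 together with Kcna4 was instead found in 45.5% of ET and 35% of IT cells, and in 1.83% of Pvalb cells. A cell with no alpha gene read at all was rare in Pvalb (2.198%), ET (2.27%) and Sst (4.22%) and most common in Vip (21.5%) and CT cells (19.5%) among the larger families. At 200000 counts a low transcript is often missed, so the shares with both genes can fall short of the cells that hold the RNA. Those with no read can exceed the cells that lack it. Reads from other cells or from an antisense partner act the other way, so neither share is a strict limit.

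Comparisons between groups of cells, 7 in all, were made as a log2 ratio of CPM + 1 with a 2-fold change and at least 10 CPM in the higher group as the limit. Kcna5 was under 10 CPM in both groups of each of them, so 8 of the 9 genes were compared. Set against the excitatory cells (413), the inhibitory cells (815) were higher past 2-fold in 3 genes and lower in 1. Of all genes compared, 7.34% were past 2-fold higher and 9.04% lower. Kcnab3 was at 159 CPM in inhibitory and 37.4 CPM in excitatory cells (log2 ratio 2.06), Kcna3 at 64.1 and 24.9 CPM (1.33) and Kcnab1 at 216 and 88.8 CPM (1.27). Kcna4 went the other way, with 11.5 CPM in inhibitory and 57.99 CPM in excitatory cells (-2.24). Kcnab3 was higher in inhibitory cells on 82 of the 105 recording days that held both kinds. When every t-type was given the same weight, Kcna3 (0.68) and Kcnab1 (0.30) were no longer past 2-fold. The median of the 8 log2 ratios was 0.43, against 0.06 over all genes. Of 14 genes for partners of the channel complex, 2 were higher and 1 lower: Lgi2 (3.20), a secreted ligand of ADAM receptors, Cntnap2 (1.87), which anchors Kv1 channels at juxtaparanodes, and Dlg1 (-1.95), a scaffold that binds the tail of alpha subunits.

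Within the inhibitory class, Pvalb cells were set against the other 529 inhibitory cells. Kcnab3 was at 305 CPM in Pvalb and 73.9 CPM in other inhibitory cells (log2 ratio 2.03), and Kcna1 at 247 and 84.2 CPM (1.54). Kcna4 was at 2.40 CPM in Pvalb and 16.8 CPM in other inhibitory cells (-2.39, and -3.31 without the day of the cell that gave most of its reads). With 2 genes higher and 1 lower of 8, the background was 5.56% of genes higher and 6.93% lower. Kcnab2 (0.99), Kcnab1 (0.95) and Kcna2 (0.91) were under the limit. Kcna3 had nearly equal sums, at 64.5 CPM in Pvalb and 63.8 CPM in other inhibitory cells (0.02). The median ratio of the 8 genes was 0.93, against 0.02 over all genes. Kcnab3 was higher in Pvalb cells on 50 of 61 days with both groups, and Kcna1 on 46 of them. Taking the mean over cells in place of the sum brought Kcnab1 and Kcnab2 past 2-fold, which made 5 genes. Of the 14 partners, 3 were higher and 1 lower. Lgi2 (1.92) and Lgi3 (1.61) code for secreted proteins of the LGI family, Zdhhc14 (1.41) for an enzyme that adds palmitate to Kv1 channels, and Lgi1 (-2.13) for the LGI protein mutated in human lateral temporal epilepsy.

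**Figure D4:**
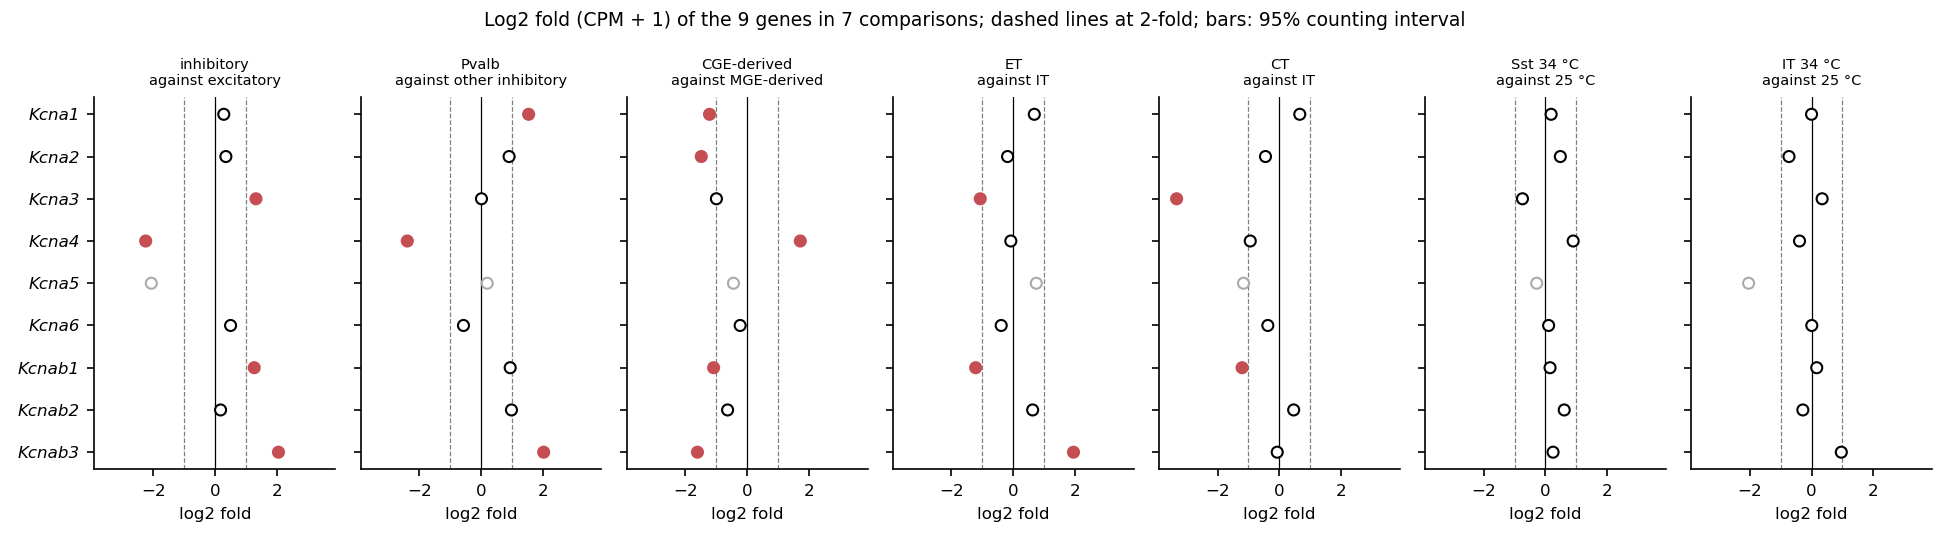
Log2 ratio of CPM + 1 of the 9 genes (rows) in the 7 comparisons (panels, the group named on top over the other), with dashed lines at 2-fold, filled points past it, grey points under 10 CPM and counting intervals mostly hidden by the points. Kcnab3 is past the line in inhibitory (2.06), Pvalb (2.03) and ET cells (1.95), Kcna4 below it in inhibitory (-2.24) and Pvalb cells (-2.39), and no gene with at least 10 CPM passes it between 34 °C and 25 °C.

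CGE-derived interneurons (257 Vip, Lamp5 and Sncg cells) were then set against MGE-derived interneurons (558 Pvalb and Sst cells, from the medial ganglionic eminence). The grouping was by family, so any cells of the Lamp5 Lhx6 type, which the paper calls putatively MGE-derived, counted as CGE-derived. In this comparison CGE-derived cells come first. The CGE-derived cells were past 2-fold lower in 4 of 8 genes, with 6.66% of all genes lower, and higher in 1, with 5.96% higher. Kcnab3 was at 63.9 CPM in CGE-derived and 197 CPM in MGE-derived cells (-1.61), Kcna2 at 32.5 and 92.6 CPM (-1.48), Kcna1 at 73.6 and 172 CPM (-1.22) and Kcnab1 at 119 and 254 CPM (-1.08). Kcna4 was at 23.95 CPM in CGE-derived and 6.56 CPM in MGE-derived cells (1.72). Kcna3 was just under the limit, at 37.04 CPM in CGE-derived and 74.8 CPM in MGE-derived cells (-0.994). It was past 2-fold without any 1 of 50 recording days, and in cells low in non-neuronal RNA. Of 45 days with both groups it was lower in CGE-derived cells on 23 and higher on 18. The MGE-derived group holds the Pvalb cells, so this comparison is not independent of the one before it. The Kcnab1 ratio was -0.998 without 1 of the recording days, and in the later period alone Kcna1 (-0.94) and Kcnab1 (-0.95) were under 2-fold. The median ratio was -1.04, against -0.01 over all genes. Of the partners 1 was higher (Lgi1, 1.92) and 3 were lower: Lgi3 (-1.96), Zdhhc14 (-1.24) and Epb41l3 (-1.23), a cytoskeletal linker at juxtaparanodes.

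Among excitatory cells, ET and CT cells were each set against the same 253 IT cells, so the comparisons share those cells. ET cells (48) were past 2-fold higher in 1 gene and lower in 2, beside 9.45% of all genes higher and 10.6% lower. Kcnab3 was at 98.8 CPM in ET and 24.8 CPM in IT cells (1.95), and higher in ET cells on 15 of 22 days with both. Kcnab1 was at 42.5 CPM in ET and 100 CPM in IT cells (-1.22), and Kcna3 at 15.2 and 33.04 CPM (-1.07). Both lower values rest on few cells. Without 1 of 6 recording days the Kcna3 ratio was between -0.97 and -0.87, in the later period alone it was 0.25, and without 1 of 2 days the Kcnab1 ratio was -0.99 or -0.95. The share of cells with a Kcnab1 read went against the sums, at 61.4% of ET and 43.8% of IT cells, and the ratio of mean cells was -0.32, so no order of Kcnab1 is read between them. Kcna1 was at 154 CPM in ET and 95.8 CPM in IT cells (0.68), and higher in ET cells on 17 of 22 days. Of 13 partners compared, 1 was higher and none lower. Cntn2, an adhesion protein of the juxtaparanode, was at 82.02 CPM in ET and 33.5 CPM in IT cells (1.27), and Epb41l3 was just under the limit (0.96). The median ratio of the 8 Kv1 genes was -0.13, against -0.05 over all genes.

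CT cells (83) were past 2-fold lower than IT cells in 2 genes and higher in none, beside 15.5% of all genes lower and 5.3% higher. Kcna3 was at 2.39 CPM in CT and 33.04 CPM in IT cells (-3.33), the largest ratio of the 9 genes in any comparison as defined above. It was lower in CT cells on 14 of 28 days with both and higher on 2. Kcnab1 was at 42.8 CPM in CT and 100 CPM in IT cells (-1.21), but -0.86 under median-of-ratios scaling and -0.48 as a ratio of mean cells. Kcna2 was at 46.6 CPM in CT and 64.03 CPM in IT cells (-0.45), and -1.77 without the day of the cell that gave most of its CT reads. Kcna1 was at 152 CPM in CT and 95.8 CPM in IT cells (0.66), and past 2-fold higher in CT cells under median-of-ratios scaling. The median of the 8 genes was -0.41, against -0.10 over all genes. Of 13 partners 3 were lower: Lgi3 (-2.08), Zdhhc14 (-1.34) and Adam11 (-1.24), a receptor-like protein that places Kv1 channels at cerebellar basket cell terminals in mice.

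Between temperatures, cells of the same t-types were compared. In 9 Sst types, 98 cells at 34 °C were set against 199 cells at 25 °C, and in 2 IT types 39 cells against 93. None of the 8 genes was past 2-fold in either family. In Sst cells 3.37% of all genes were higher and 7% lower, and in IT cells 4.4% higher and 6.26% lower. In Sst cells the largest ratios were those of Kcna4 (19.01 CPM at 34 °C and 9.74 CPM at 25 °C, 0.90), Kcna3 (55.8 and 94.2 CPM, -0.74) and Kcnab2 (99.6 and 65.02 CPM, 0.61). In IT cells they were Kcnab3 (42.6 CPM at 34 °C and 21.4 CPM at 25 °C, 0.96) and Kcna2 (57.8 and 96.6 CPM, -0.73). Without 1 of 7 days Kcna4 in Sst cells was past 2-fold (1.003 to 1.30), and without 1 of 6 days so was Kcnab3 in IT cells (1.003 to 1.41). None of the partners was past 2-fold. The largest partner ratios were those of Zdhhc14 (-0.96) and Dlg2 (-0.93), another scaffold for alpha subunits, in Sst cells, and of Dlg4 (-0.87) and Adam11 (-0.84) in IT cells. The small 34 °C families repeated the high levels of Kcna1 and Kcnab3 in Pvalb and ET cells and of Kcnab1 in Pvalb cells. In 10 Pvalb cells Kcna1 was at 303 CPM, Kcnab1 at 299 CPM and Kcnab3 at 213 CPM. In 12 ET cells Kcna1 was at 220 CPM and Kcnab3 at 134 CPM. Kcnab2 did not repeat its order, with 49.4 CPM in ET, 55.3 CPM in IT, 96.7 CPM in Sst and 101 CPM in Pvalb cells. All 182 Kcna4 reads in the Pvalb cells came from 1 cell.

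The intronic counts of the 34 °C cells gave a second readout of the same cells. Unspliced RNA in the nucleus is rich in introns, and the long gene Kcnab1, with a span of 268840 bases, yielded many such reads. In ET cells Kcnab1 had an intronic level of 76.7 on the same scale (intronic reads over exonic counts, times 1000000), 73.7% of its reads there (exact binomial interval 71.6% to 75.7%), and in IT cells 321 (65.8%, 65.3% to 66.4%). In Pvalb cells it had 247 on this scale (45.2%) and in Sst cells 183 (43.2%). Over all genes the intronic share was 42.1% in ET, 37.4% in IT, 29.1% in Pvalb and 25.7% in Sst cells, so the share of Kcnab1 was higher than that of all genes in each family and followed the same order. By exonic reads Kcnab1 was at 299 CPM in Pvalb, 241 CPM in Sst and 167 CPM in IT cells, so IT cells led in intronic and not in exonic reads. Noncoding genes lie within the span of Kcnab1, and without strand their reads cannot be told apart from its introns. Kcna6 had an intronic share between 13.8% and 34.1% in these 4 families and Kcnab3 between 3.35% and 6.72%. Kcna4 had 14.97% in ET and 3.67% in IT cells. Single cells carried much of some intronic sums. For Kcna4, 1 cell gave 61.1% of the intronic reads in ET and 43.9% in IT cells. For Kcna6 it was 97.8% in Pvalb cells, and for Kcnab1 40.8% in ET and 41.2% in Pvalb cells. Kcna1 and Kcna2 had at most 0.351% and Kcna3 and Kcna5, which have a single exon, none.

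**Figure D5:**
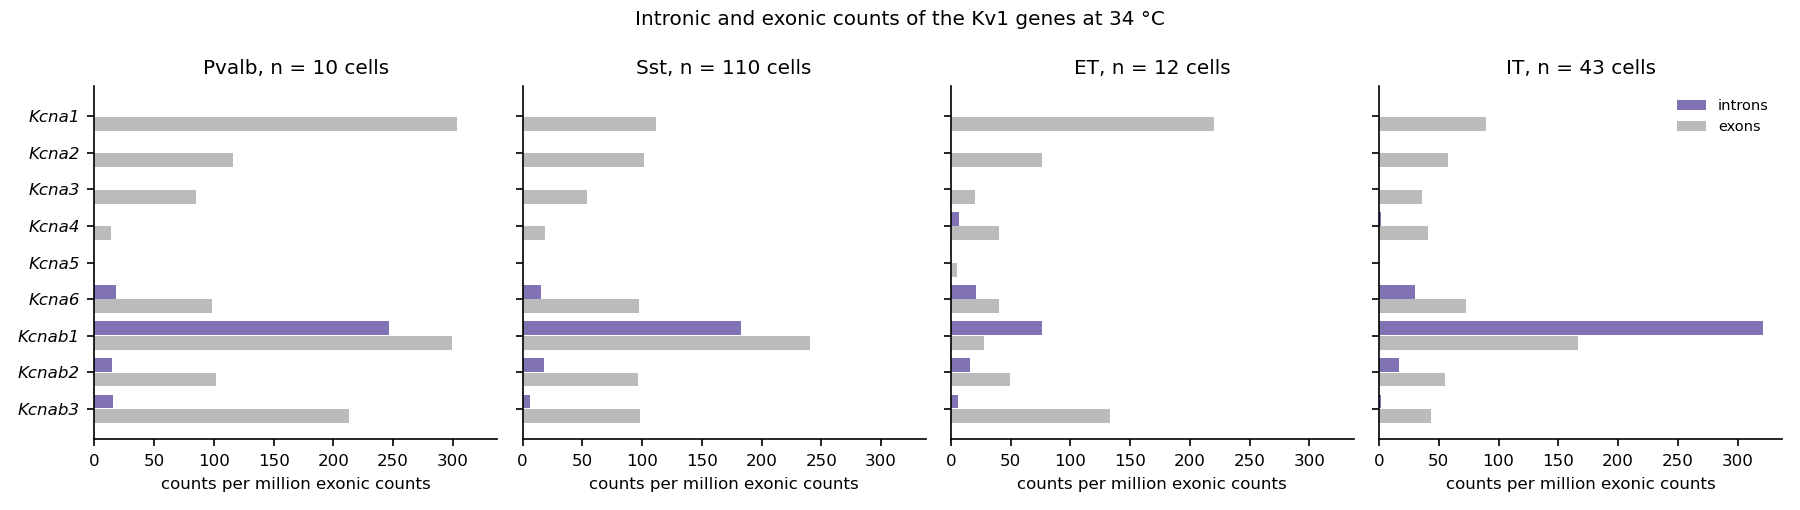
Intronic and exonic reads (bars, both over the total of exonic counts, times 1000000) of the 9 genes in the Pvalb, Sst, ET and IT cells recorded at 34 °C. Kcnab1 stands out with an intronic level of 321 in IT cells beside 167 exonic, and Kcna1, Kcna2, Kcna3 and Kcna5 have at most 0.358 intronic.

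For each gene the 3 genes with the most similar profile over the 53 t-types were looked up among 15123 genes, by Pearson r of log2(CPM + 1). The t-types share libraries, depth and the same reference mapping, so these are descriptions. Kcnab3 was most like Cplx1 (0.74), which codes for a complexin of the release machinery, then Akain1 (0.68) and Tfg (0.66). Kcna4 was most like Cacna2d1 (0.70), an auxiliary calcium channel subunit, Ptk2b (0.67) and Arpp21 (0.65), and Kcna3 most like Adcyap1r1 (0.64), the PACAP receptor, with AI504432 (0.63) next and Ctsl (0.55) after. Kcna6 was most like Tgoln1 (0.78), Pigk (0.69) and Spcs2 (0.68), and Kcna5 most like Adgrg6 (0.74), Gm37245 (0.68) and Nxph4 (0.66). The nearest genes to Kcna1 were Mbnl1, Ciart and Cox15 (0.61 to 0.62), to Kcna2 Dlgap2, Clec16a and Cdr1os (0.62 to 0.64), to Kcnab1 Nars, Klf3 and BC029722 (0.53 to 0.62) and to Kcnab2 Ldhb, Gm5514 and Gm20538 (all 0.67). No member was among the nearest 3 genes of another. Between members the highest value was that of Kcna1 with Kcnab3 (0.50), which was 0.70 over the 39 inhibitory types and -0.10 over the 14 excitatory types, and the lowest that of Kcna4 with Kcnab3 (-0.45). The depth of a t-type had a correlation of 0.37 with Kcna1, 0.43 with Kcnab2 and 0.27 with Kcnab3.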

How the data were processed

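Exonic read counts per gene and cell were deposited by the authors as raw counts in a table of the 25 °C cells and a table of the 34 °C cells, with intronic counts of the 34 °C cells in a further table. Per the labels and the study's methods, single-end reads of 75 bases were demultiplexed with bcl2fastq 2.20, aligned to mm10 with STAR 2.5.4b and counted with zUMIs on GENCODE annotation. The 25 °C intronic table was not used here. Exonic counts leave out reads in introns, but reads of unspliced RNA that fall in exons are counted. A long transcript collects more reads than a short one.

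Cells were grouped by their labelled t-type. The 92 cells at 25 °C and 8 cells at 34 °C without one entered no comparison, and 9 columns of the 25 °C table that match no sample were not used. The 85 spike-in rows, 4.69% of counts at 25 °C, were left out, and the 34 °C table held none. Counts were summed per group over the remaining rows and scaled to CPM, and intervals at a level of 95% are exact Poisson for a sum and Clopper-Pearson, the exact binomial, for a share. Log2 ratios used CPM + 1. A ratio past 2-fold in either direction, where the higher group reached 10 CPM, was counted, and the same count over all genes gave the background. With 1 sample per group no test was run. Shares of cells were taken after drawing each cell to 200000 counts with a fixed seed, and cells under 100000 counts were left out of cell ranges.

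All 9 genes are named in the text, with Kcna7 and Kcna10. Of 14 listed partners of the channel complex, between 2 and 4 with the largest ratios are named in each comparison. For each gene the 3 most similar genes are named. The genes, lists and comparisons were chosen with earlier results of these data known. Coordinates, exon lengths and sequences are from GENCODE M21 on GRCm38, while the counting used another release of that annotation. The ratio script was tested on simulated counts. The alternatives were other cell weights, pseudocounts, minimums, scaling, depth, recording period, non-neuronal RNA and leaving out each recording day. Python 3.11.15, numpy 2.4.6, pandas 2.3.3, scipy 1.17.1 and matplotlib 3.10.9 were used.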

Additional observations from a re-analysis of the deposited data

Results flagged for a closer look

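Single cells stood far from the others in small groups. In 17 groups of 5 cells (NP and L6b Ror1 at 25 °C, by gene), 9 held a highest cell whose gap to the next one was above the Dixon limit, where chance alone flags about 1 in 20 groups. Among NP cells these were Kcna1 (139 CPM in 1 cell, next 0.320), Kcna3 (161 CPM, next 0), Kcnab1 (218 CPM, next 62.4), Kcnab2 (218 CPM, next 23.9) and Kcnab3 (286 CPM, next 8.62). Among L6b Ror1 cells they were Kcna1 (588 CPM, next 77.4), Kcna4 (317 CPM, next 24.7), Kcna5 (141 CPM, next 0.391) and Kcnab3 (68.7 CPM, next 0.782). The Dixon limit assumes values spread around a centre, and most cells here were at or near 0.

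Cells without a t-type label entered no comparison but held reads of the genes. In 92 such cells at 25 °C the sums were 44.7 CPM of Kcna1, 78.8 CPM of Kcna2, 31.3 CPM of Kcna3, 0.680 CPM of Kcna4, 0.680 CPM of Kcna5, 8.98 CPM of Kcna6, 89.7 CPM of Kcnab1, 20.98 CPM of Kcnab2 and 45.2 CPM of Kcnab3, all above the 0.0886 CPM that 3 counts give. A single cell gave 77.8% of the Kcna1 reads and 71.2% of the Kcna3 reads. Microglial genes summed to 8691 CPM in these cells. In 8 such cells at 34 °C the sums were 601 CPM of Kcna1, 431 CPM of Kcna2, 3.91 CPM of Kcna6 and 37.5 CPM of Kcnab2, each from 1 cell, against a limit of 2.35 CPM.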

How the results depend on the processing

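Of the 17 ratios past 2-fold, the alternatives gave 170 values, of which 169 kept their sign. Leaving out recording days aside, 14 values were no longer past the limit. Leaving out 1 day also took Kcna3 (-0.87) and Kcnab1 (-0.95) in ET against IT cells under it. The same held for Kcnab1 (-0.998) in CGE-derived against MGE-derived cells. The sign turned for Kcna3 in ET against IT cells in the later period (0.25), which held 5 ET cells. Over the alternatives the Kcnab1 ratio ran from -6.81 to -0.32 in ET against IT cells and from -6.53 to -0.48 in CT against IT cells. That of Kcna3 in CT against IT cells ran from -5.00 to -2.86. Counts of genes past 2-fold moved by more than 1.5 times as follows. With the mean over cells they were 5 for Pvalb, 1 for ET, 1 for CT and 1 for Sst at 34 °C. With each t-type weighted alike they were 2 for inhibitory cells, 1 for Sst at 34 °C and 2 for IT at 34 °C. The later period gave 5 for ET, with 5 ET cells, and the earlier period 7 for CT, with 1 CT cell, in which 79.1% of all genes were past 2-fold. For IT at 34 °C, cells low in non-neuronal RNA, median-of-ratios scaling and no CPM minimum gave 1 each. Leaving out each recording day gave 4 genes throughout for inhibitory cells, 3 to 5 for Pvalb, 4 to 6 for CGE-derived, 1 to 3 for ET, 2 to 4 for CT, and 0 to 1 for Sst and for IT at 34 °C. In Pvalb cells the earlier period alone and cells low in non-neuronal RNA added Kcnab1, and the later period alone added Kcnab2. Median-of-ratios scaling moved all ratios by 0.35 for CT against IT and by 0.17 for inhibitory against excitatory cells, and by under 0.1 elsewhere. For CT against IT it brought Kcna1 past 2-fold and took Kcnab1 under it, with the count unchanged. A planned level that adds length-scaled intronic counts was not run, nor were intronic levels at 25 °C. No paired analysis was run: the labels name no mouse, and recording days held by both groups were only counted by direction. The levels of Kcna5 and, in Pvalb cells, of Kcna4 rest on a few cells, and the part of depth in them was not tested.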
